A study of Homo sapiens with 6 samples.

Results

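The 65 rows described here are the heat shock protein and DNAJ chaperone genes of an RNA-sequencing table of 16311 genes. They were chosen by symbol: the HSPA, HSPB, HSPD, HSPE and HSPH families, DNAJA, DNAJB and DNAJC genes with a number, and HSP90AA1, HSP90AB1 and HSP90B1. HSF1, the heat shock transcription factor, belongs to the same rule but had no row, so it is not analysed here. The RNA came from LNCaP, an established cell line of androgen-sensitive prostate adenocarcinoma. A set of 3 libraries came from untreated cells and another 3 from cells that had received 40 Gy in total. This treatment is labelled FIR, an abbreviation left unexplained, and radiation is named in the series title. No schedule, time after the last dose or culture of the controls is stated, and replicate numbers 1 to 3 in each group are not tied to separate cultures, so p-values measure the spread between libraries, which may be technical.

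Chaperones bind unfolded or partly folded proteins and help them reach, keep or regain their shape. HSP70 proteins (HSPA genes) bind and release clients in an ATP cycle. J-domain proteins (DNAJ genes) bring them clients and start ATP hydrolysis, and nucleotide exchange factors, among them the HSP110 proteins, end the cycle. HSP90 proteins act on more mature clients, small heat shock proteins (HSPB genes) hold clients without ATP, and the chaperonin HSPD1 with its lid HSPE1 encloses them in mitochondria. Each compartment keeps its own set. The cytosolic set answers mainly to HSF1 and the set of the endoplasmic reticulum (ER) to the unfolded protein response.

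Read totals over all listed genes ran from 15703483 to 21004697 per library. The luminal prostate markers KLK3, KLK2, FOLH1, TMPRSS2, HOXB13 and STEAP2 each had a row. KLK3 stood at 2823 to 3139 CPM in untreated and 2075 to 2467 CPM in FIR libraries, and the lowest value of these markers in any library was 264 CPM, for KLK2. Their directions were mixed. On the log2 scale KLK3 and HOXB13 fell by -0.37 and -0.31, while TMPRSS2, KLK2, FOLH1 and STEAP2 rose by 0.49, 0.42, 0.40 and 0.26. CPM, the usual depth-scaled read count, is a gene's share of its library's reads after TMM scaling between libraries. Of markers of other cell types, 0 of 3 immune genes had a row. The endothelial gene VWF, 1 of 3 looked up, stood at 28.8 to 40.6 CPM in untreated and 5.08 to 6.22 CPM in FIR libraries. Of 4 fibroblast and smooth muscle genes 2 had a row and moved in opposite directions, their sum going from 25.4 to 27.7 CPM in untreated to 10.2 to 12.6 CPM in FIR libraries. COL1A1 fell by -2.17 and ACTA2 rose by 1.15 on the log2 scale (adjusted p = 5.4e-08 and 3.3e-04). The part of these markers in the chaperone values was not tested. In bulk RNA, fewer cells of a kind and less RNA per cell cannot be told apart, and all changes are relative to the other genes.

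HSPA5, HSP90B1 and 4 other ER members fell, as did HSPD1, HSPE1, HSPA9 and DNAJC11 of 7 mitochondrial members. Of the abundant cytosolic genes HSP90AB1, HSP90AA1 and HSPA8 did not pass the test and HSPB1 fell. J-domain proteins went both ways: DNAJB14, DNAJB2, DNAJC5 and DNAJC6 were among those that rose, and DNAJB11, DNAJA2, DNAJC9 and DNAJC22 among those that fell. The ratio of summed CPM over 37 DNAJ genes, FIR over untreated, was 1.02. In edgeR's quasi-likelihood test with Benjamini-Hochberg adjustment over all 16311 genes at a threshold of 0.05, 35 of 65 members passed (53.8%), against 48.7% of all genes. Of the members 22 were lower in FIR cells (33.8%, against 23.4% of all genes) and 13 were higher, where 25.4% of all genes were. The groups' libraries did not overlap for 41 members, and this held for 56.9% of all genes. Large changes were few: 4 members passed with a fold of 2 or more, which is 6.15% of members against 16% of all genes. They were HSPB8 and DNAJC6, both higher, and DNAJC22 and HSPA2, both lower. Such shares vary with level. At 100 CPM or more, from 10 to 100 CPM and below 10 CPM, 0, 2.86 and 25.0% of members passed with that fold. Of all genes in these classes 7.27, 10.8 and 24.8% did. Lower calls took 44.4, 37.1 and 8.33% of members in these classes, against 29.5, 28.5 and 15.5% of all genes. The median log2 fold change, FIR over untreated, was -0.11 over members and 0.01 over all genes. The authors' deposited table gave the same call for each of the 65 members.

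**Figure D1:**
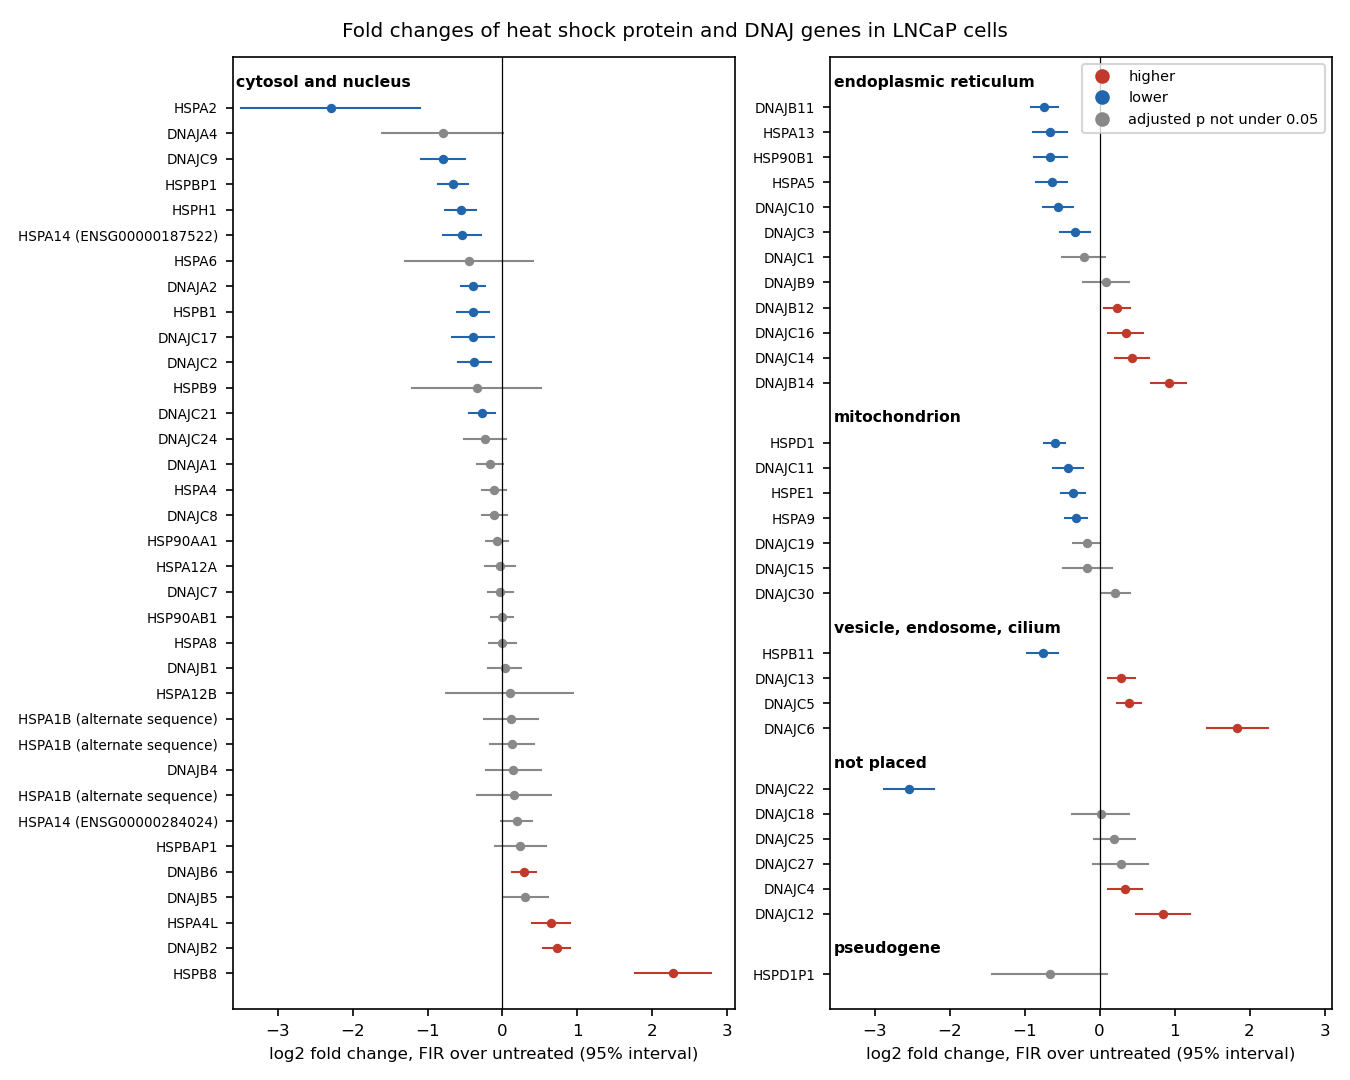
Log2 fold change of each member, FIR over untreated, with its 95% interval from the edgeR fit, grouped by compartment and ordered by size; red genes were higher, blue genes lower and grey genes did not pass. The ER panel divides into 6 lower genes, 4 higher genes and 2 that did not pass, and 21 of 35 cytosolic rows did not pass.

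**Figure D2:**
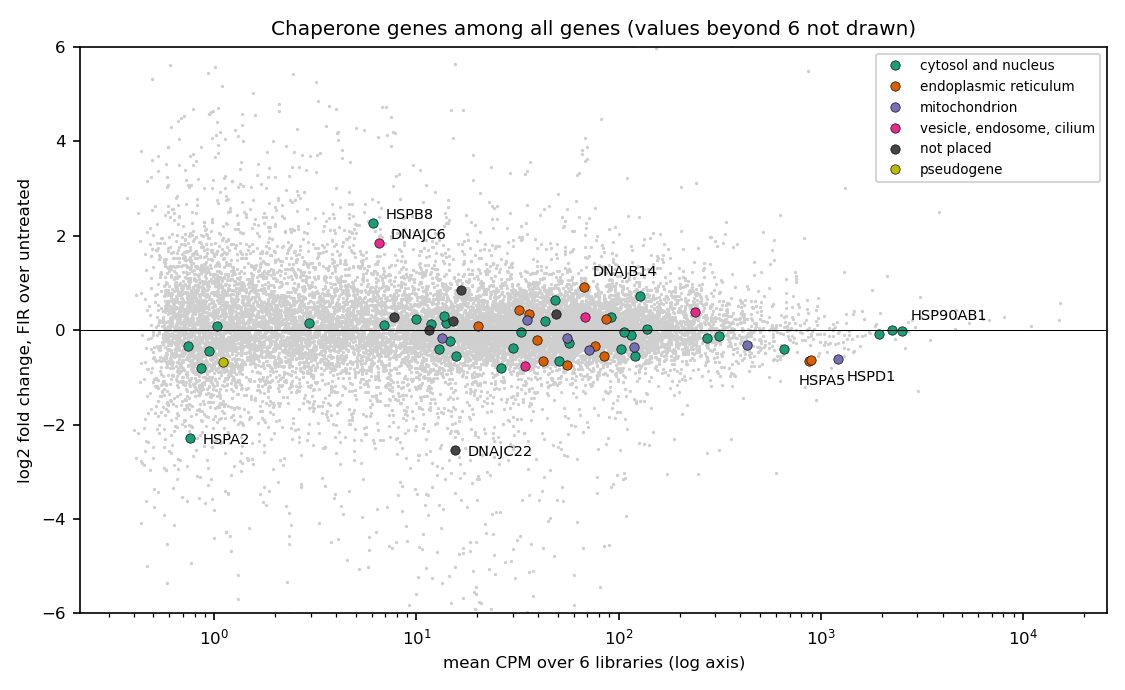
Log2 fold change (vertical axis) against mean CPM over the 6 libraries (log axis) for all genes in grey and the members in colour. HSP90AB1, HSP90AA1 and HSPA8 sit near 0, HSPA5, HSP90B1, HSPD1 and HSPB1 sit below it, and the members with a fold of 2 or more are scarce genes.

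Rows with several copies stand apart from the rest. HSPA1B, the stress-inducible HSP70, appeared only on 3 alternate sequences of the MHC region, at 2.68 to 13.1 CPM, and none of the 3 rows passed. Its near-identical copy HSPA1A had no row, and reads of such copies can be split or dropped in counting, so the inducible HSP70 level is uncertain. The symbol HSPA14 stood on 2 overlapping rows of chromosome 10. The row ENSG00000187522 fell and the row ENSG00000284024, which a newer name table calls MSANTD7, did not pass. The pseudogene HSPD1P1 did not pass (adjusted p = 0.14). HSPBP1 and HSPBAP1 match the rule by name and are cofactors, not chaperones, and HSPB11 is a subunit of the transport machinery of cilia. Of the genes listed by compartment, 12 had no row, among them HSPA1L, DNAJA3 and HSPB6, and are not analysed here.

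Summed over 61 rows on the primary chromosomes and without the pseudogene, member transcripts made up 14737 ± 686 CPM in untreated and 12967 ± 112 CPM in FIR libraries (SD, n = 3). The ranges did not overlap, at 14129 to 15481 CPM and 12879 to 13093 CPM. Cytosolic and nuclear members, 32 genes, summed to 9318 ± 635 and 8939 ± 185 CPM, and their ranges overlapped. The 7 mitochondrial members went from 2269 ± 77.0 to 1622 ± 10.0 CPM, a ratio of 0.715. The 12 ER members went from 2722 ± 309 to 1908 ± 142 CPM, a ratio of 0.701. These sums mainly follow a few abundant genes. HSPD1 had means of 1470 CPM in untreated and 969 CPM in FIR libraries. HSPA5 went from 1092 to 700 CPM and HSP90B1 from 1075 to 681 CPM. The 37 DNAJ genes together stood at 2209.5 ± 83.2 and 2244 ± 5.20 CPM, so their rises and falls left the sum within the spread of the untreated libraries.

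**Figure D3:**
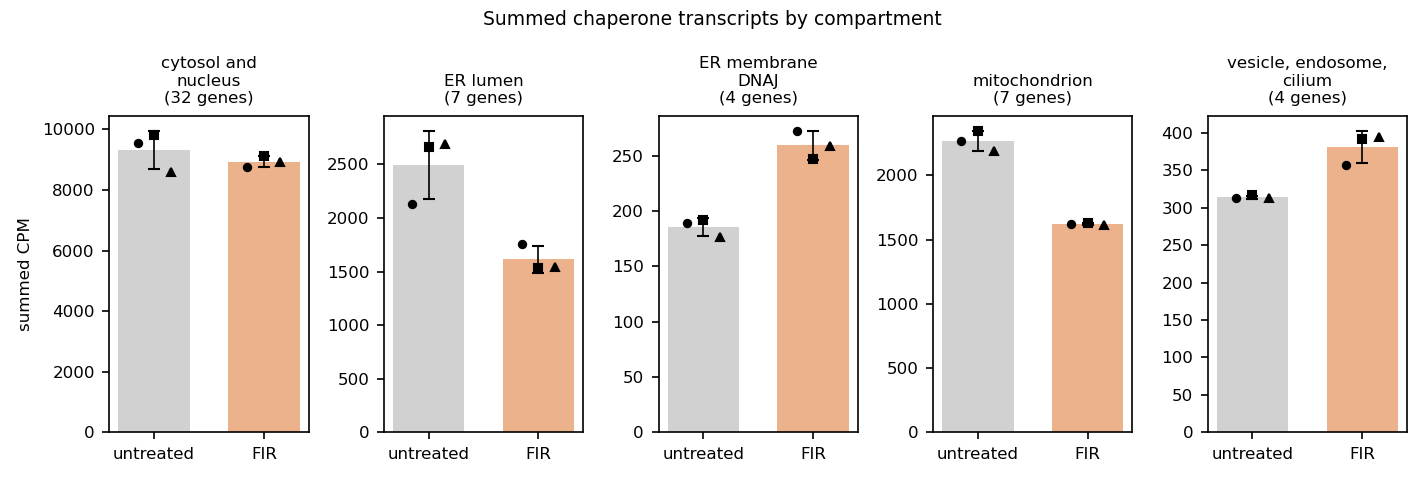
Summed CPM of the members of each compartment, with bars at the mean of 3 libraries, SD as error bars and 1 symbol per library (circle, square and triangle for replicates 1, 2 and 3). ER lumen and mitochondrial sums were lower in each FIR library than in any untreated one. Sums of vesicle members were higher, and the cytosolic sums overlapped. The 4 ER membrane J proteins were grouped with their rises known, so the direction of their sum was fixed by that choice.

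In the ER, 6 of 12 members fell (against 23.4% of all genes), 4 rose (33.3%, against 25.4%) and 2 did not pass. They are described in groups made after the values were seen and therefore given without a test. Of 7 lumenal members 6 fell and DNAJB9 did not pass. The members that rose were the membrane J proteins DNAJB12, DNAJB14, DNAJC14 and DNAJC16. Other J proteins of the ER membrane did not share that direction: DNAJC1 did not pass, and SEC63, outside the members, fell. DNAJC18, placed in none of the compartment lists here, did not pass either (log2 fold change 0.01, adjusted p = 0.96). The lumenal genes summed to 2126, 2664 and 2691 CPM in untreated replicates 1, 2 and 3 and to 1758, 1536 and 1543 CPM in FIR replicates 1, 2 and 3. The 4 membrane J proteins that rose summed to 189, 192 and 176 CPM and to 273, 247 and 259 CPM, a direction fixed by choosing genes that rose.

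HSPA5, the HSP70 of the ER lumen known as BiP (chromosome 9, 125234853 to 125241343 on hg38), stood at 892, 1219.8 and 1163 CPM in untreated replicates 1 to 3. In FIR replicates 1 to 3 it stood at 724, 679 and 697 CPM. Untreated replicate 1 was the lowest of its group, and the groups did not overlap. HSPA5 fell by -0.64 on the log2 scale (SE 0.10, adjusted p = 6.7e-05). HSP90B1, the ER HSP90 known as GRP94, stood at 925, 1094 and 1206 CPM in untreated and 783, 633 and 627 CPM in FIR libraries, with FIR replicate 1 the highest of its group. It fell by -0.66 (SE 0.10, adjusted p = 8.3e-05). Its annotated span overlaps C12orf73 and TTC41P on the opposite strand, and the strand setting of the counting is not given. Such overlaps are described for some members only. DNAJB11, DNAJC11, DNAJC30, DNAJB1, DNAJC2 and DNAJC17 are among others that overlap a gene on the opposite strand. DNAJC4 overlaps NUDT22 on the same strand.

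The other lumenal members are mostly J proteins, which serve HSPA5. DNAJB11, a J protein that hands it nascent clients, stood at 69.6, 74.8 and 64.7 CPM in untreated and 39.9, 43.6 and 42.1 CPM in FIR libraries. It fell by -0.74 (SE 0.09, adjusted p = 5.2e-06), and its groups were well apart. HSPA13, a truncated HSP70 relative, went from 46.0, 57.4 and 52.3 CPM to 37.2, 31.9 and 29.3 CPM (log2 fold change -0.66, SE 0.11, adjusted p = 1.3e-04). DNAJC10, a J protein that also reduces disulfides, fell by -0.56 (SE 0.09). DNAJC3, known as p58IPK, fell by -0.33 (SE 0.10, adjusted p = 0.010), a call not kept without untreated replicate 2 (adjusted p = 0.053) or without FIR replicate 2 (adjusted p = 0.061). DNAJB9, a J protein of the degradation pathway and a target of the unfolded protein response, had a log2 fold change of 0.08 with a 95% interval of -0.22 to 0.39. DNAJC1, a membrane protein whose J domain faces the lumen, stood at -0.22 (adjusted p = 0.20) and at -0.39 without untreated replicate 3 (adjusted p = 0.0053).

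The upstream sequences of HSPA5 and HSP90B1 are shown because these genes carry the ER stress element, CCAAT and CCACG with 9 bases of any kind between them, on either strand. RefSeq windows of 300 bases, ending 50 bases after a gene's start (GRCh38.p14), were found for 55 of 62 member symbols. HSPA5 and HSP90B1 were the only members with the exact element, 2 of 55 (3.64%), against 17 of 10503 genes of the table (0.162%). Genes with several starts have several windows and count once. The 250 bases before the start follow, 5′ to 3′ on the gene's strand, with the element in capitals.
HSPA5 (chr9:125241344-125241593, minus strand): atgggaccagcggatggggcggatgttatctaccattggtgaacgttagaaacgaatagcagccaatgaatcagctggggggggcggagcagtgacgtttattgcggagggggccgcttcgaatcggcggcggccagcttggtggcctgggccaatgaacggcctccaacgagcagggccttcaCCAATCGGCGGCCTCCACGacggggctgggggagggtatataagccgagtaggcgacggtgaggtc
HSP90B1 (chr12:103930160-103930409, plus strand): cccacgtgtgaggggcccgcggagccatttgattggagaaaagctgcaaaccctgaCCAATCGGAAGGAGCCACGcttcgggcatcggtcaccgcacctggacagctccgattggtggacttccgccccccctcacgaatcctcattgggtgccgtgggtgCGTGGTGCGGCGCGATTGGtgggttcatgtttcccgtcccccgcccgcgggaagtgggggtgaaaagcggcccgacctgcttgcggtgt
HSPA5 held 1 match and HSP90B1 held 2, on opposite strands. A match is a description of these letters, and a window without one says nothing of the factors that bind.

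DNAJB14 and DNAJB12, ER membrane proteins whose J domains face the cytosol and which act in the disposal of misfolded membrane proteins, were both higher. DNAJB14 stood at 48.6, 45.8 and 45.5 CPM in untreated and 106, 81.2 and 77.7 CPM in FIR libraries. It rose by 0.92 (SE 0.11, adjusted p = 5.2e-06), 1.89 times, with FIR replicate 1 above the rest. DNAJB12 rose by 0.23 (SE 0.08, adjusted p = 0.027), a small rise that was lost with library-size scaling (adjusted p = 0.079), with the replicate block (adjusted p = 0.052) and without untreated replicate 2 or 3 or FIR replicate 3 (adjusted p = 0.12, 0.075 and 0.13). DNAJC14, which has been tied to export of receptors from the ER, went from 28.0, 30.1 and 24.2 CPM to 35.5, 35.8 and 39.7 CPM (log2 fold change 0.43, SE 0.10, adjusted p = 0.0031). Its span overlaps ORMDL2 and TMEM198B on the opposite strand. DNAJC16 went from 29.7, 37.0 and 28.4 CPM to 42.3, 38.0 and 40.7 CPM, so untreated replicate 2 and FIR replicate 2 lay close together. Its log2 fold change was 0.35 (SE 0.11, adjusted p = 0.016), and the call was not kept without untreated replicate 1 or 3 or FIR replicate 1 (adjusted p = 0.067, 0.065 and 0.059).

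**Figure D4:**
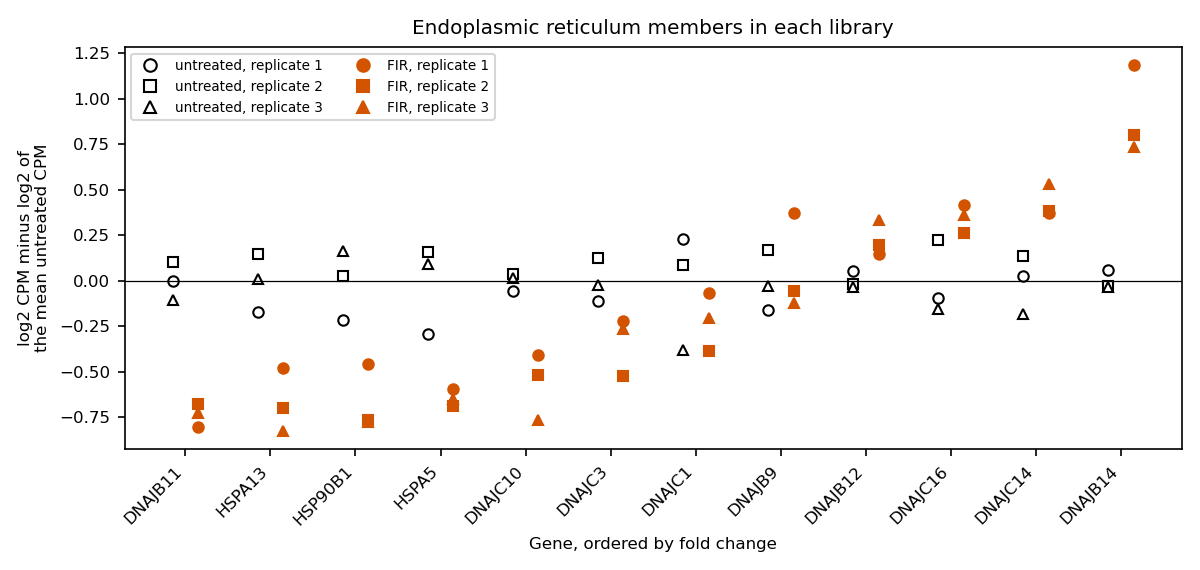
Log2 CPM of the 12 ER members in each library, minus the log2 of the gene's mean untreated CPM, with open symbols for untreated and filled symbols for FIR libraries. FIR libraries lie below all untreated ones for the 6 genes on the left and above them for the 4 on the right, while DNAJC1 and DNAJB9 overlap.

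Other genes of ER folding moved mostly down. Of 25 listed partners 15 fell (against 23.4% of all genes), 3 rose (against 25.4%) and 7 did not pass, with a median log2 fold change of -0.32 against 0.01 over all genes. XBP1, a transcription factor of the unfolded protein response, fell most, from 217 ± 28.2 to 96.0 ± 6.10 CPM (SD, n = 3). Its log2 fold change was -1.18 (SE 0.10, adjusted p = 1.0e-07). SDF2L1, which binds DNAJB11, fell from 78.9 ± 5.03 to 38.9 ± 3.89 CPM (SD, n = 3; -1.02, SE 0.09, adjusted p = 3.6e-07). The genes that rose were EDEM1, CANX and ATF6, by 0.37, 0.33 and 0.28, and they act in degradation, lectin-based folding and sensing.

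In mitochondria, 4 of 7 members fell (57.1%, against 23.4% of all genes), 0 rose (against 25.4%) and 3 did not pass. HSPD1, the chaperonin HSP60, stood at 1471, 1537 and 1402 CPM in untreated and 981, 967 and 960.0 CPM in FIR libraries. The FIR libraries lay close together and far below the untreated ones. HSPD1 fell by -0.60 (SE 0.07, adjusted p = 3.0e-06), 1.52 times. HSPE1, its lid, stood at 128, 138 and 135 CPM in untreated and 104, 110.0 and 97.8 CPM in FIR libraries and fell by -0.36 (SE 0.08, adjusted p = 0.0014). On chromosome 2 the annotated span of HSPE1 (197500140 to 197503449) lies inside that of HSPD1 (197486584 to 197516737), on the opposite strand. HSPD1 also overlaps MOB4 on the opposite strand. Without a known strand setting, HSPD1 and HSPE1 may share reads.

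HSPA9, the mitochondrial HSP70 mortalin that pulls proteins through the import channel, stood at 474, 479.9 and 479.7 CPM in untreated and 373, 391 and 389 CPM in FIR libraries. It fell by -0.31 (SE 0.07, adjusted p = 0.0011), a small change with tight groups. DNAJC11, a J protein of the contact sites between the mitochondrial membranes, went from 90.7, 85.3 and 70.4 CPM to 61.2, 58.8 and 63.6 CPM (log2 fold change -0.42, SE 0.10, adjusted p = 0.0018). DNAJC19 and DNAJC15, J proteins of the import motor, stood at -0.17 and -0.16 and did not pass. DNAJC19 passed with library-size scaling (adjusted p = 0.036). DNAJC30 stood at 0.21 (adjusted p = 0.069) and passed without FIR replicate 1 (adjusted p = 0.042). Of 13 measured partners in mitochondrial protein quality control 8 fell (61.5%, against 23.4% of all genes), 0 rose and 5 did not pass (median -0.40). LONP1, a protease of the matrix, fell from 493 ± 18.4 to 255 ± 22.1 CPM (SD, n = 3; -0.95, SE 0.08, adjusted p = 1.1e-07). TIMM44, which tethers HSPA9 to the import channel, fell from 126 ± 6.82 to 66.4 ± 3.27 CPM (SD, n = 3; -0.92, SE 0.08, adjusted p = 2.2e-07).

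In the cytosol and nucleus, 10 of 35 rows fell (28.6%), a share close to the 23.4% of all genes. A further 4 rose (11.4%, against 25.4%) and 21 did not pass. Per kilobase of the deposited gene length, HSP90AB1 was the highest member, at 846 CPM per kilobase in untreated cells, followed by HSPB1 at 495, HSPA8 at 463 and HSP90AA1 at 380.2. HSP90AB1, the constitutive HSP90, stood at 2570.2, 2619 and 2377 CPM in untreated and 2516, 2535 and 2475 CPM in FIR libraries. The groups overlapped, and its log2 fold change was -0.01 with a 95% interval of -0.15 to 0.13 (adjusted p = 0.94). HSP90AA1, the inducible HSP90, stood at 1955, 2140.1 and 1889.8 CPM and at 1936, 1932 and 1833 CPM (log2 fold change -0.07, 95% interval -0.22 to 0.08). Its span overlaps WDR20 on the opposite strand.

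HSPA8, the constitutive HSP70 that also uncoats clathrin vesicles, stood at 2368, 2418 and 1949.9 CPM in untreated and 2111, 2359 and 2243 CPM in FIR libraries. Untreated replicate 3 was the lowest of all, and the groups overlapped. The log2 fold change was -0.01 with a 95% interval of -0.19 to 0.17. DNAJB1, the inducible J protein often read as a sign of HSF1 activity, stood at 156, 140.5 and 112 CPM and at 145, 132 and 141 CPM (0.03, 95% interval -0.19 to 0.25). DNAJA1 stood at 298, 310.1 and 256 CPM and at 261, 252 and 259.5 CPM. Its log2 fold change of -0.16 did not pass (adjusted p = 0.11) but did with library-size scaling (-0.22, adjusted p = 0.035) and without untreated replicate 3 (-0.26, adjusted p = 0.0043). DNAJA2, a J protein of the same class, fell by -0.39 (SE 0.07), from 116 to 119 CPM in untreated to 88.0 to 90.2 CPM in FIR libraries.

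Small heat shock proteins went separate ways. HSPB1, known as HSP27, stood at 781, 764 and 688 CPM in untreated and 469, 591 and 639 CPM in FIR libraries, with FIR replicate 1 the lowest. It fell by -0.39 (SE 0.10, adjusted p = 0.0039). HSPB8 (chromosome 12, 119178642 to 119221131), which works with the cochaperone BAG3 in selective autophagy of damaged proteins, stood at 1.93, 2.69 and 1.58 CPM in untreated and 7.77, 10.2 and 12.5 CPM in FIR libraries. It was the largest rise among members, 4.84 times (log2 fold change 2.28, SE 0.24, adjusted p = 1.6e-06), at a level far below that of HSPB1. BAG3 itself stood at -0.10 (SE 0.10, adjusted p = 0.42) and did not pass. HSPB9 stood under 1 CPM in each library and did not pass.

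A heat shock element core, GAANNTTC or TTCNNGAA, each of which reads the same on both strands and which can overlap, lay in a window of 17 of 55 member symbols (30.9%), against 13.5% of 10503 genes of the table. Of those 17, 4 rose, 3 fell and 10 did not pass, and these shares are no higher than the 25.4% and 23.4% of all genes. HSPA8 and HSPB8 are shown as an abundant holder that did not pass and the member that rose most. The 250 bases before the start follow as above, with the cores in capitals, overlapping ones running together.
HSPA8 (chr11:123062137-123062386, minus strand): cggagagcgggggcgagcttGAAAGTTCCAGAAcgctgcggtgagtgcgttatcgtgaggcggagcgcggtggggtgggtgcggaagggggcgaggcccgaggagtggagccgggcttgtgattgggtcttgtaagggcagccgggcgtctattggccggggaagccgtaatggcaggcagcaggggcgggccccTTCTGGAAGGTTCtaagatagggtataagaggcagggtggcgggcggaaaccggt
HSPB8 (chr12:119178681-119178930, plus strand): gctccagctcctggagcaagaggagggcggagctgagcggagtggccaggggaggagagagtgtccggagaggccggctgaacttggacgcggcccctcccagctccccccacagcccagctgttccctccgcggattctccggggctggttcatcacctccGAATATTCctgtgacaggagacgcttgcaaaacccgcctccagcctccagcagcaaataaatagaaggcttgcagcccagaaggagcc
HSPA8 held 4 matches in 2 pairs, and HSPB8 held 1, with another after the start that is not printed.

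The exchange factors of HSP70 divided within one family. HSPH1 (HSP110) stood at 143, 165 and 123 CPM in untreated and 99.0, 93.7 and 101 CPM in FIR libraries and fell by -0.56 (SE 0.10, adjusted p = 2.2e-04). Its paralog HSPA4L stood at 32.8, 42.0 and 38.5 CPM in untreated and 69.9, 54.0 and 53.8 CPM in FIR libraries and rose by 0.65 (SE 0.12, adjusted p = 3.0e-04). The third paralog, HSPA4, stood between them at -0.11 (adjusted p = 0.22), and at -0.18 without untreated replicate 3 (adjusted p = 0.042). HSPBP1, an unrelated exchange factor, went from 66.8, 61.7 and 57.7 CPM to 36.2, 38.1 and 43.6 CPM (-0.66, SE 0.10, adjusted p = 3.9e-05).

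Ratios of members within a library are given as a description, since the exact two-sided permutation test of 3 against 3 libraries cannot go below 0.10. HSPA5 over HSPA8 went in log2 from -1.05 ± 0.34 to -1.68 ± 0.13 and HSPD1 over HSPE1 from 3.46 ± 0.08 to 3.22 ± 0.08 (SD, n = 3; exact p = 0.10, adjusted over 8 ratios 0.13 for each). HSP90AA1 over HSP90AB1 differed between groups by -0.06 (exact p = 0.30, adjusted 0.34). HSPA9 over HSPA8 and HSPH1 over HSPA4 differed by -0.315 and -0.434 (exact p = 0.10, adjusted 0.13 for each). The 8 ratios of the adjustment include some chosen after the values were seen. A pair of those follows, given without its p. HSPA4L over HSPH1 stood at -1.93 ± 0.23 and -0.74 ± 0.21 (SD, n = 3), a direction fixed by the calls of its members, and HSP90B1 over HSPA5 differed between groups by -0.03.

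Several further members have nuclear or ribosomal tasks, and they are gathered here with their values known. DNAJC9, a histone chaperone of replicating cells, stood at 39.9, 32.0 and 27.3 CPM in untreated and 19.1, 17.2 and 20.8 CPM in FIR libraries and fell by -0.79 (SE 0.14, adjusted p = 1.9e-04). Its span overlaps MRPS16 on the same strand and FAM149B1 on the other. DNAJC2 and HSPA14, which form a complex at the ribosome, fell by -0.37 (SE 0.10) and -0.54 (SE 0.12). The HSPA14 value comes from the row ENSG00000187522, with means of 18.6 CPM in untreated and 12.8 CPM in FIR libraries. With the row ENSG00000284024 added (means of 40.5 and 46.2 CPM), the log2 fold change was 0.00 (adjusted p = 0.98). A newer name table calls that row MSANTD7, so the sum may mix different genes. DNAJC21, which acts in maturation of the large ribosomal subunit, fell by -0.28 (SE 0.08, adjusted p = 0.013), not kept without untreated replicate 2 (adjusted p = 0.063) or FIR replicate 3 (adjusted p = 0.058). DNAJC17, a spliceosome J protein, fell by -0.39 (SE 0.13, adjusted p = 0.023), not kept without untreated replicate 1 or 2 or FIR replicate 1 or 2 (adjusted p = 0.059, 0.066, 0.084 and 0.053). DNAJC8, another spliceosome J protein, stood at -0.11 and did not pass. HSPA2, an HSP70 best known from testis, fell by -2.29 (SE 0.56, adjusted p = 0.0033) but had only 13 to 39 reads in untreated and 3 to 6 reads in FIR libraries.

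DNAJB2, a ubiquitin-binding J protein enriched in neurons, stood at 99.2, 89.8 and 100.02 CPM in untreated and 143, 166 and 169 CPM in FIR libraries. It rose by 0.72 (SE 0.09, adjusted p = 5.5e-06), with a wide gap between groups. DNAJB6, which holds back aggregation of polyglutamine proteins, rose by 0.28 (SE 0.07, adjusted p = 0.0053). The remaining rows of this compartment, among them DNAJB4, DNAJB5, DNAJC7, DNAJC24, HSPA12A, HSPA12B, HSPA6 and DNAJA4, did not pass.

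All 4 members listed under vesicles, endosomes and cilia passed, 3 higher and 1 lower, where 48.7% of all genes passed, and a list of 4 is too short to read a share from. DNAJC6 (chromosome 1, 65248219 to 65415871), the auxilin that recruits HSPA8 to uncoat clathrin vesicles and is known mainly from neurons, stood at 3.03, 2.41 and 3.09 CPM in untreated and 8.87, 9.98 and 11.6 CPM in FIR libraries. It rose by 1.84 (SE 0.19, adjusted p = 1.4e-06), 3.57 times. GAK, its widely expressed relative, went from 128 ± 1.75 to 146 ± 8.24 CPM (SD, n = 3) and rose by 0.19 (SE 0.07, adjusted p = 0.049). DNAJC5, the cysteine string protein of secretory and synaptic vesicles, stood at 205, 205 and 209 CPM in untreated and 248, 280.3 and 283 CPM in FIR libraries and rose by 0.39 (SE 0.07, adjusted p = 4.8e-04). DNAJC13, which acts on endosomes, went from 64.3, 64.9 and 55.8 CPM to 72.3, 78.1 and 75.8 CPM (0.29, SE 0.09, adjusted p = 0.011), not kept without untreated replicate 3 (adjusted p = 0.055). HSPB11, of intraflagellar transport, stood at 40.8, 44.3 and 44.6 CPM in untreated and 27.7, 23.9 and 25.0 CPM in FIR libraries and fell by -0.76 (SE 0.10, adjusted p = 1.1e-05).

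Of 6 DNAJC genes placed in none of these lists, 2 rose (33.3%, against 25.4% of all genes), 1 fell (16.7%, against 23.4%) and 3 (DNAJC18, DNAJC25 and DNAJC27) did not pass. DNAJC22 (chromosome 12, 49346888 to 49357546), a membrane J protein whose Drosophila counterpart Wurst acts in endocytosis, stood at 24.8, 27.3 and 27.8 CPM in untreated and 5.75, 4.21 and 3.71 CPM in FIR libraries. It was the largest fall among members, 5.82 times (log2 fold change -2.54, SE 0.16, adjusted p = 4.9e-09). DNAJC12, which assists the aromatic amino acid hydroxylases, stood at 13.4, 9.70 and 12.5 CPM in untreated and 22.2, 25.5 and 16.0 CPM in FIR libraries and rose by 0.84 (SE 0.17, adjusted p = 7.9e-04). DNAJC4 went from 43.0, 36.4 and 50.1 CPM to 52.1, 57.5 and 53.5 CPM (0.33, SE 0.11, adjusted p = 0.018), not kept without untreated replicate 2 (adjusted p = 0.13) or FIR replicate 2 (adjusted p = 0.068). By class, 0 of 3 DNAJA genes rose and 1 fell, 4 of 9 DNAJB genes rose and 1 fell, and 7 of 25 DNAJC genes rose and 8 fell. The DNAJC shares, 28.0% and 32.0%, lie near the 25.4% and 23.4% of all genes.

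**Figure D5:**
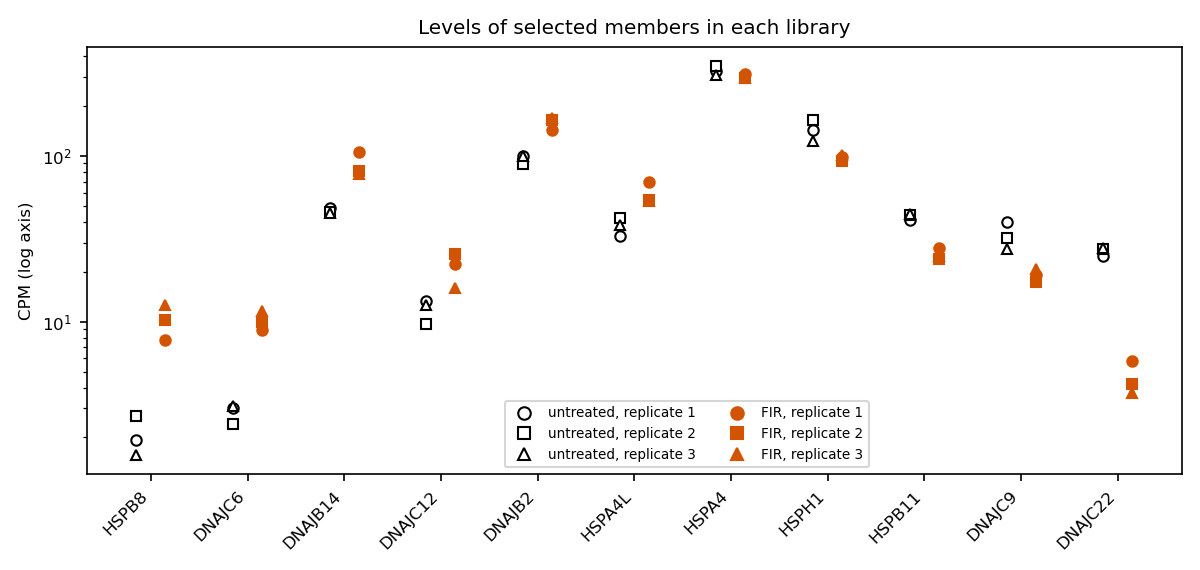
CPM in each library (log axis) of members with large changes and of the 3 HSP110 paralogs, open symbols for untreated and filled for FIR. HSPA4L was higher and HSPH1 lower in each FIR library than in any untreated one, and HSPB8, DNAJC6 and DNAJC22 show the widest gaps.

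Cytosolic partners of HSP90 and HSP70 were looked up in the same fit. Of 25 measured HSP90 cochaperones 11 fell, 5 rose and 9 did not pass (median -0.18). All genes were lower in 23.4% and higher in 25.4%. PIH1D1, a subunit of the R2TP assembly complex, fell from 68.9 ± 3.56 to 31.9 ± 1.82 CPM (SD, n = 3; -1.11, SE 0.09, adjusted p = 6.6e-08), and its partners RUVBL2, RPAP3 and RUVBL1 fell by -0.79, -0.53 and -0.43. FNIP1, a folliculin partner that slows the HSP90 cycle, rose from 40.1 ± 2.86 to 76.7 ± 7.64 CPM (SD, n = 3; 0.93, SE 0.09, adjusted p = 1.1e-06). The general cochaperones STIP1, PTGES3 and AHSA1 fell by -0.38, -0.53 and -0.30, and CDC37, which brings kinases to HSP90, stood at -0.11 and did not pass.

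Of 18 measured HSP70 partners and stress proteins 5 rose, 3 fell and 10 did not pass (median 0.00). These shares, 27.8% higher and 16.7% lower, are near those of all genes, 25.4% and 23.4%. CLU, the secreted chaperone clusterin, rose from 12.2 ± 3.34 to 32.0 ± 6.31 CPM (SD, n = 3; 1.39, SE 0.18, adjusted p = 1.2e-05), and GRPEL2, an exchange factor of HSPA9, fell from 72.5 ± 4.75 to 42.8 ± 2.67 CPM (SD, n = 3; -0.76, SE 0.09, adjusted p = 4.0e-06). GRPEL1, the more abundant exchange factor of HSPA9, stood at -0.03 (adjusted p = 0.82) and did not pass. BAG1, an exchange factor, and SIL1, the exchange factor of HSPA5, rose by 0.49 and 0.34. Of 15 measured subunits of the cytosolic chaperonin TRiC and of prefoldin 8 fell (53.3%, against 23.4% of all genes), 1 rose and 6 did not pass (median -0.24). TCP1, a TRiC subunit, fell from 559.7 ± 84.3 to 352 ± 6.95 CPM (SD, n = 3; -0.67, SE 0.09, adjusted p = 3.4e-05), and the prefoldin subunit PFDN2 fell by -0.45 (SE 0.10, adjusted p = 0.0017). Of J-domain genes with other symbols, HSCB and SEC63 fell by -0.54 (SE 0.17, adjusted p = 0.017) and -0.42 (SE 0.08, adjusted p = 5.6e-04), and GAK rose as given above.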

How the data were processed

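RNA sequencing of 3 untreated and 3 FIR LNCaP libraries was analysed from 1 table. It holds unnormalised counts for every gene listed, as deposited by the authors. Beside them stand the authors' own log2 fold changes and adjusted p-values. Tools listed in the submitters' processing notes are STAR 2.5, Subread 1.6.2 with featureCounts, bcl2fastq and edgeR 3.20.8, and the build is hg38, with no role or setting. Not given in the sources used here were the annotation release, the strand setting and the handling of multi-mapping reads. A set of 12 columns of per-sample log values was not used.

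Counts were scaled by TMM and fitted with edgeR 4.0.16 (R 4.3.3, glmQLFit and glmQLFTest), group as the only term, Benjamini-Hochberg adjustment over all genes. The filterByExpr rule (minimum count 10) removed 0 genes. SE is the log2 fold change over the square root of F. The steps were tested on simulated counts. No pair of libraries agreed within sampling noise.

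Members and lists were chosen with earlier results of these data known. Values per library are given for 15 genes fixed by name, where measured, and, in each compartment, for the 3 called members of largest rise and of largest fall with a mean of at least 1 CPM. Of each partner list the 2 called genes of largest change are named. Some items of the marker and partner lists are not reported here. Any further gene was picked with its values in view. Alternatives tried were DESeq2 1.42.0, limma-voom (limma 3.58.1), scaling by library size, by upper quartile or by RLE, the replicate block, no filter on low counts, at least 1 CPM in 3 libraries, rows of 1 symbol summed, and each library left out. GENCODE release 29 gave biotypes, and RefSeq (GRCh38.p14) gave promoter windows.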

Additional observations from a re-analysis of the deposited data

How the results depend on the processing

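Over 15 alternative settings 0 members named with values in every library changed direction past the threshold. With the replicate block, 12 members were higher and 22 lower, and 3988 and 3668 of all genes. The correlations of deviations between libraries of the same number were 0.05, -0.07 and -0.09, so the numbers were not taken to pair the samples. Leaving out 1 library at a time gave 10 to 13 members higher and 19 to 25 lower, and 3401 to 4014 and 3368 to 3976 of all genes. With library-size scaling in place of TMM, the log2 ratios of the compartment sums all shifted down by a similar amount. The mitochondrial sum went from -0.484 to -0.54 and the ER sum from -0.512 to -0.567. The cytosolic sum went from -0.06 to -0.115 and the vesicle sum from 0.281 to 0.225. TMM factors were 1.013 to 1.025 in untreated and 0.972 to 0.988 in FIR libraries. Lumenal ER members numbered 5 to 6 lower over the settings. Of the 4 ER membrane J proteins, grouped because they rose in the main fit, 2 to 4 stayed higher. Calls lost or gained are given beside each member. The alternatives were fitted to all genes, but the calls of partner genes under them were not examined. Members under 10 CPM rest on few reads, and a p that misses the threshold there does not show that a gene did not differ.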
